A study of Mus musculus with 2 samples.

Results

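The mitosis and G2/M genes described here are 38 genes that act between the entry into mitosis and the separation of the daughter cells. They were chosen by name and matched by symbol, and all 38 were found among the 36808 genes of the deposited table. Earlier results of these data were known when these genes and the lists used further on were chosen. The counts below therefore describe these genes and lists and test nothing. The cells were primary hepatocytes, the parenchymal cells of the liver, taken from C57Bl6 mice and cultured in both groups in William E medium with FBS, insulin and dexamethasone. Treatment was with 1 µM GW3965, which activates the oxysterol-sensing nuclear receptors LXR alpha and LXR beta, or with the solvent DMSO as control. Each group had 1 library, and replicate error could therefore not be measured for any difference below. The sources used here state neither the number of animals nor the treatment time. The table calls its second library GL, which was taken to be GW3965, the only treated sample in the labels. That assignment is not certain.

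A dividing cell builds its mitotic apparatus late in the cycle. Cyclin A and cyclin B activate the kinase Cdk1, Polo and Aurora kinases shape the spindle, and kinetochores tie chromosomes to microtubules under the control of a checkpoint. The anaphase-promoting complex then destroys cyclin B and securin, chromosomes part, and the cell is cleaved. Most genes of this programme are transcribed in G2 and M through promoters with CCAAT boxes, bound by NF-Y, and a cell cycle genes homology region (CHR), bound by the MuvB complex with B-MYB and FOXM1, while in resting cells MuvB joins the repressive DREAM complex. Adult hepatocytes rarely divide, and those placed in culture can re-enter the cycle.

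Levels are FPKM, sequenced fragments scaled to transcript length and library size, so they can be compared between genes. Steps between low values gave an estimated depth of 59600000 fragments for DMSO and 74100000 for GW3965. The LXR target Abca1, a cholesterol exporter, stood at 14.6 FPKM in the DMSO library and 81.1 in the GW3965 library. Some hepatocyte transcripts were abundant, with Apob at 244 and 248 FPKM and Ttr at 205 and 189, and others were low. In the DMSO and GW3965 libraries Cyp2e1 had 6.527 and 6.9 FPKM, Cps1 had 1.497 and 2.098, and Tat had 0.9621 and 0.4474. Apoa1, Serpina1a and Hnf4a, the remaining hepatocyte markers found, were higher than Cyp2e1 in both libraries. Albumin (Alb) and transferrin (Trf) carried a mark for too many fragments and were not used. All markers tried of lymphoid cells (6), granulocytes (5) and erythroid cells (4) were below 1 FPKM in both libraries, and 2 granulocyte markers were listed at 0 in both.

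All 38 genes had a lower FPKM in the GW3965 library than in the DMSO library. The median log2 ratio of FPKM, GW3965 over DMSO, was -0.77, which is 58.6% of the DMSO level, and single genes ran from -1.71 to -0.13. Among the 12731 genes of the same range of mean FPKM (0.101 to 32.4) and above 0 in both libraries, 51.2% had a ratio below 0 and the median was -0.0063. At least 1.5-fold lower were 28 of the 38, against 7.33% of those genes, and at least 2-fold lower were 8 of the 38, against 2.95%. No member was 1.5-fold higher (0 of 38, against 4.65%). In bulk RNA, fewer dividing cells and less of these transcripts per cell cannot be told apart.

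**Figure D1:**
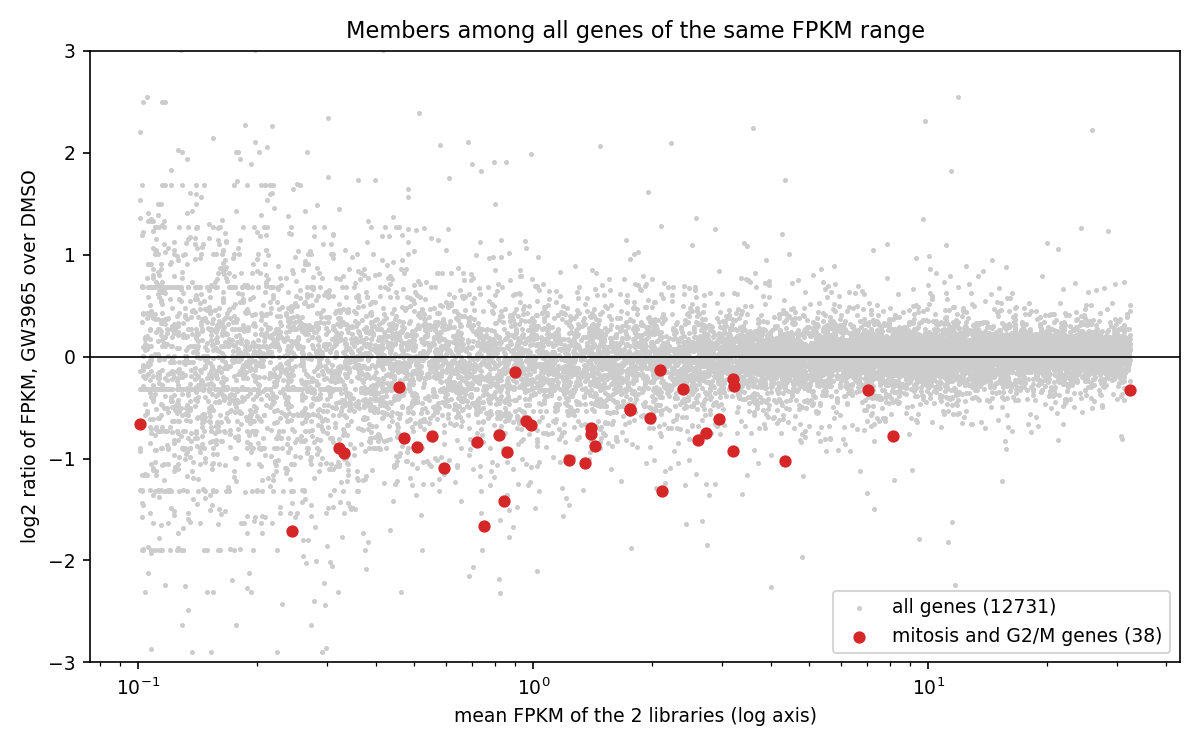
Each point is a gene, placed by its mean FPKM over the DMSO and GW3965 libraries (log axis) and its log2 ratio of FPKM, GW3965 over DMSO. Grey points are the 12731 genes of the same FPKM range, of which 13 lie outside the drawn ratios of -3 to 3, and red points are the 38 mitosis and G2/M genes, all below 0.

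The spread of all genes widens at low levels, where few fragments were counted, so the members were also set beside genes of a like level. Of the 7 members with a mean above 3 FPKM, 3 were at least 1.5-fold lower, against 1.34% of all genes at that level. From 1 to 3 FPKM the count was 10 of 14, against 7.25%. Below 1 FPKM it was 15 of 17, against 19.0%. The median ratio was -0.33 in the highest band, -0.72 in the middle band and -0.83 in the lowest.

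Adding 1 to each FPKM damps the noise of low genes and also their differences. On that scale and with at least 1 FPKM in either library, 27 members remained, 19 of them at 1 FPKM in both libraries and 8 in DMSO only. Those 8 entered through the library in which they were higher, so the following counts describe the 27 and support nothing further. At least 1.5-fold lower were 6, against 1.33% of 11796 genes, namely Ube2c, Top2a, Cdk1, Birc5, Ttk and Ndc80. Ndc80 lay just inside that threshold at -0.61, and Aurkb and Mki67 lay just outside it at -0.58. The count depends on the value added and was 17 with 0.1 (2.71% of all genes) and 0 with 5 (0.475%). At least 1.5-fold higher were 0, against 1.02%. All 27 lay below 0, as did 47.1% of all genes, and their median was -0.42 against 0.011.

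The authors' deposited table tested 37 of the 38 genes and called 2 of them, Ttk and Mki67, against 0.119% of 15090 tested genes called lower. With 1 library per treatment, such a test speaks of these libraries and not of the treatments. In the authors' deposited table, 15 of the 37 had an unadjusted p under 0.05, against 1.86% of tested genes that were lower at that p. The standard error of the log2 ratio, derived as the ratio over the test statistic of the authors' deposited table, had a median of 0.39. It ranged from 0.24 to 8.47 and was above 1 for 4 genes, Cdc25b, Kif4, Cdc20 and Cenpf, whose ratios are therefore the least certain.

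**Figure D2:**
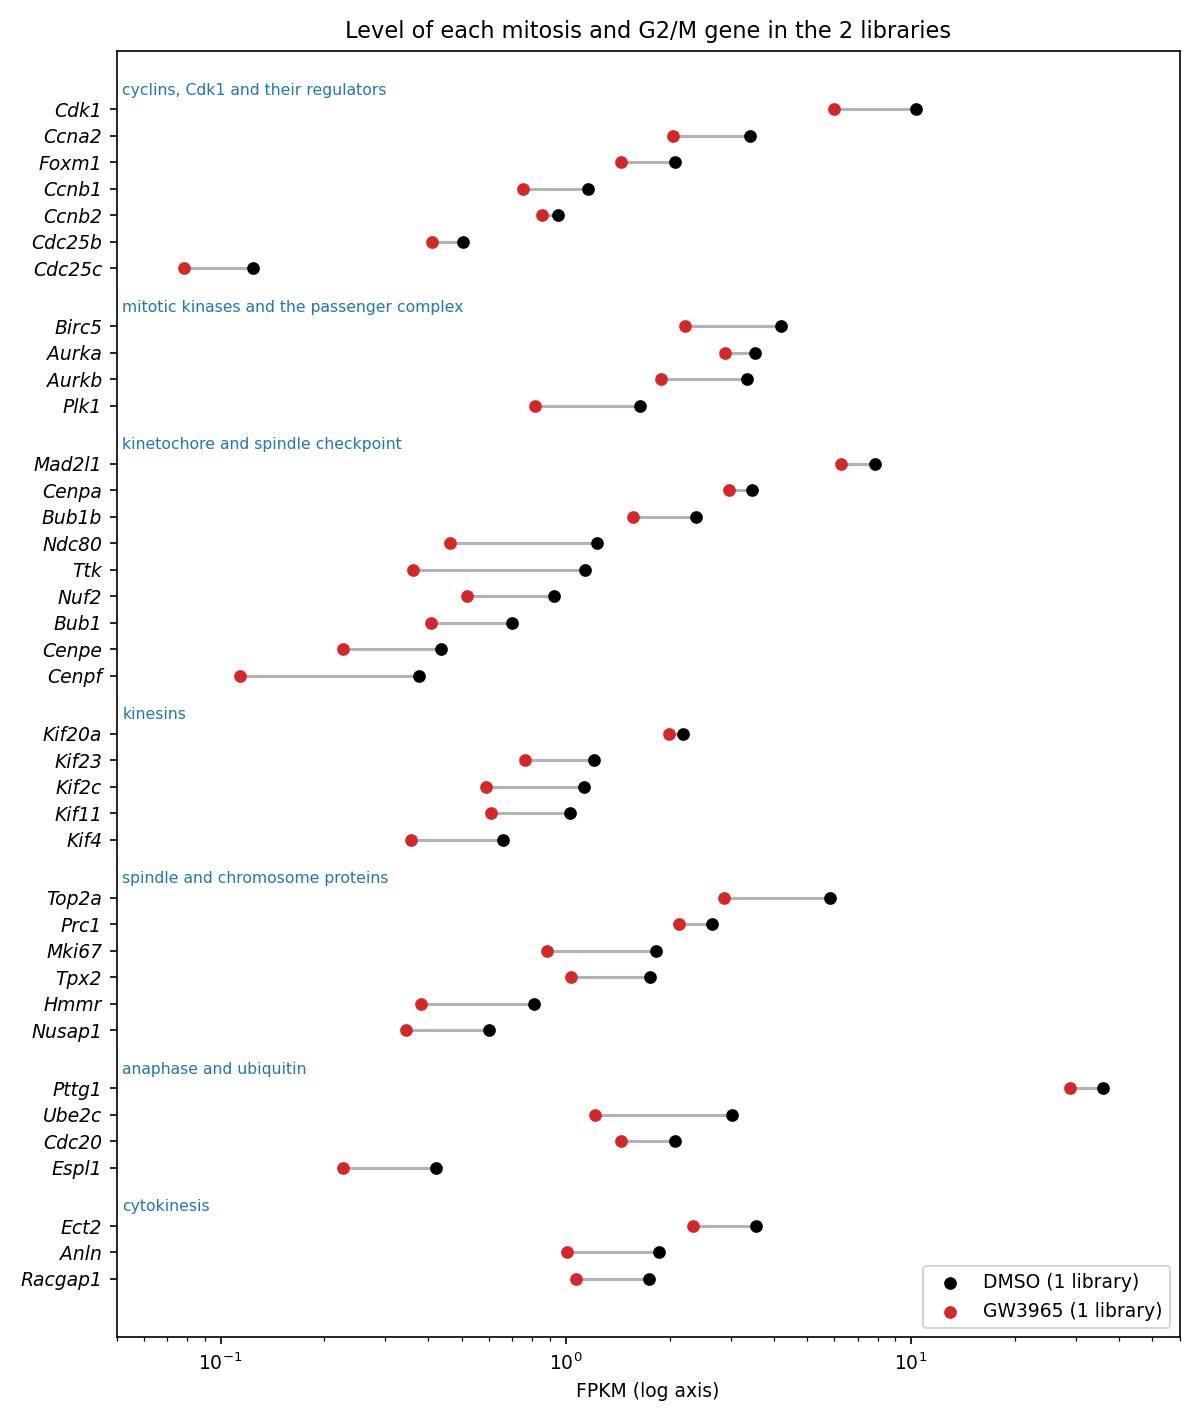
FPKM (log axis) of each of the 38 genes in the DMSO library (black) and the GW3965 library (red), grouped by role. The red point is to the left of the black one in every row, and Pttg1 stands above all others at 36.0 and 28.8 FPKM.

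The promoter sequences of the members are shown because the genes were lower together and the textbook control of this class lies in short promoter elements. RefSeq promoter windows of GRCm38.p6, from 250 bases before to 50 after the start site, matched 32 members with 34 windows. Ccna2, Tpx2, Foxm1, Aurkb, Cdc25c and Kif20a had none. The letters searched, on both strands, were TTTGAA and TTCGAA for the CHR, CCAAT for NF-Y, GCGGGAA and GCGCCAA for E2F, and TAACGG for MYB. CCAAT can overlap GCGCCAA, and the other letters were counted independently of each other. In the stretches below, the 150 bases before the start site are written 5′ to 3′ on the gene's strand. Capitals mark the CHR and NF-Y letters of either strand, so that TTCAAA is the reverse complement of the first CHR word and ATTGG that of the NF-Y word. These 7 were chosen, after the sequences were seen, because both kinds of letters lie in this stretch and because the genes cover several roles.
Cdk1 (chr10:69352913-69353062, minus strand): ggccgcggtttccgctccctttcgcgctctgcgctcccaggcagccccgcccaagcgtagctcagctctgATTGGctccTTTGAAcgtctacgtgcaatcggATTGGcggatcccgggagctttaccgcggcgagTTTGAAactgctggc
Top2a (chr11:99024190-99024339, minus strand): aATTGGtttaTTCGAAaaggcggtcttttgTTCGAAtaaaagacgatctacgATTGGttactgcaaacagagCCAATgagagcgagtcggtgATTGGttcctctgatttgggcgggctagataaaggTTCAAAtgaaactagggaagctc
Mki67 (chr7:135716380-135716529, minus strand): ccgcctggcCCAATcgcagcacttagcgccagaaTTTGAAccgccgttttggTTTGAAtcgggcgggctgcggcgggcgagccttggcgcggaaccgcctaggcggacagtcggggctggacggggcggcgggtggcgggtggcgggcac
Ube2c (chr2:164769779-164769928, plus strand): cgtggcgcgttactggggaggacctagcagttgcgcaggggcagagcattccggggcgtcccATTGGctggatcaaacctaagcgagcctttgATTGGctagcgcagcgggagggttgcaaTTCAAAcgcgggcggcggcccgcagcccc
Cdc20 (chr4:118437344-118437493, minus strand): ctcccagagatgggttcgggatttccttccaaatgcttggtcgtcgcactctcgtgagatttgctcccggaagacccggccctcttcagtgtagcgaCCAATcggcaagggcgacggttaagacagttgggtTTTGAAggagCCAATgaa
Kif11 (chr19:37376232-37376381, plus strand): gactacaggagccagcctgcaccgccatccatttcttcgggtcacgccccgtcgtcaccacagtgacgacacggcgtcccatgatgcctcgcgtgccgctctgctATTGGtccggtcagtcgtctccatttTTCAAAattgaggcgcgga
Prc1 (chr7:80294326-80294475, plus strand): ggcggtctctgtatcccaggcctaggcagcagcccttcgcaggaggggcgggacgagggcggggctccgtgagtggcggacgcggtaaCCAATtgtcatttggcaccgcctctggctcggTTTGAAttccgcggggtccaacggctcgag

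In these 7 stretches an NF-Y box begins 25 to 35 bases before a CHR begins, with 33 bases in Cdk1, 28 in Ube2c and 26 in Kif11. The same stretch holds both kinds of letters in 10 windows, and the 3 not shown, those of Espl1 and of both Ect2 starts, lack this spacing within it. Over all windows, CHR letters were in 27 of the 34 windows of members, 79.4%, against 19.2% of 32851 promoters. NF-Y letters were in 26 (76.5% against 37.4%), and both were in 24 (70.6% against 7.53%). E2F letters were in 5 (14.7% against 6.81%) and MYB letters in 2 (5.88% against 2.76%). Among the 10312 promoters of protein-coding genes with at least 1 FPKM in either library, the shares were 13.5% for CHR, 37.7% for NF-Y, 5.47% for both, 11.9% for E2F and 3.72% for MYB. The share of members with E2F letters was thus close to that of genes expressed here. CHR letters starting within 50 bases of the start site were in 25 windows, 73.5%, against 5.31%. An NF-Y box beginning 25 to 40 bases before a CHR was in 14, 41.2%, against 0.706%. These distances were chosen after the sequences were seen, and a match is a description of letters, not a bound site.

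**Figure D3:**
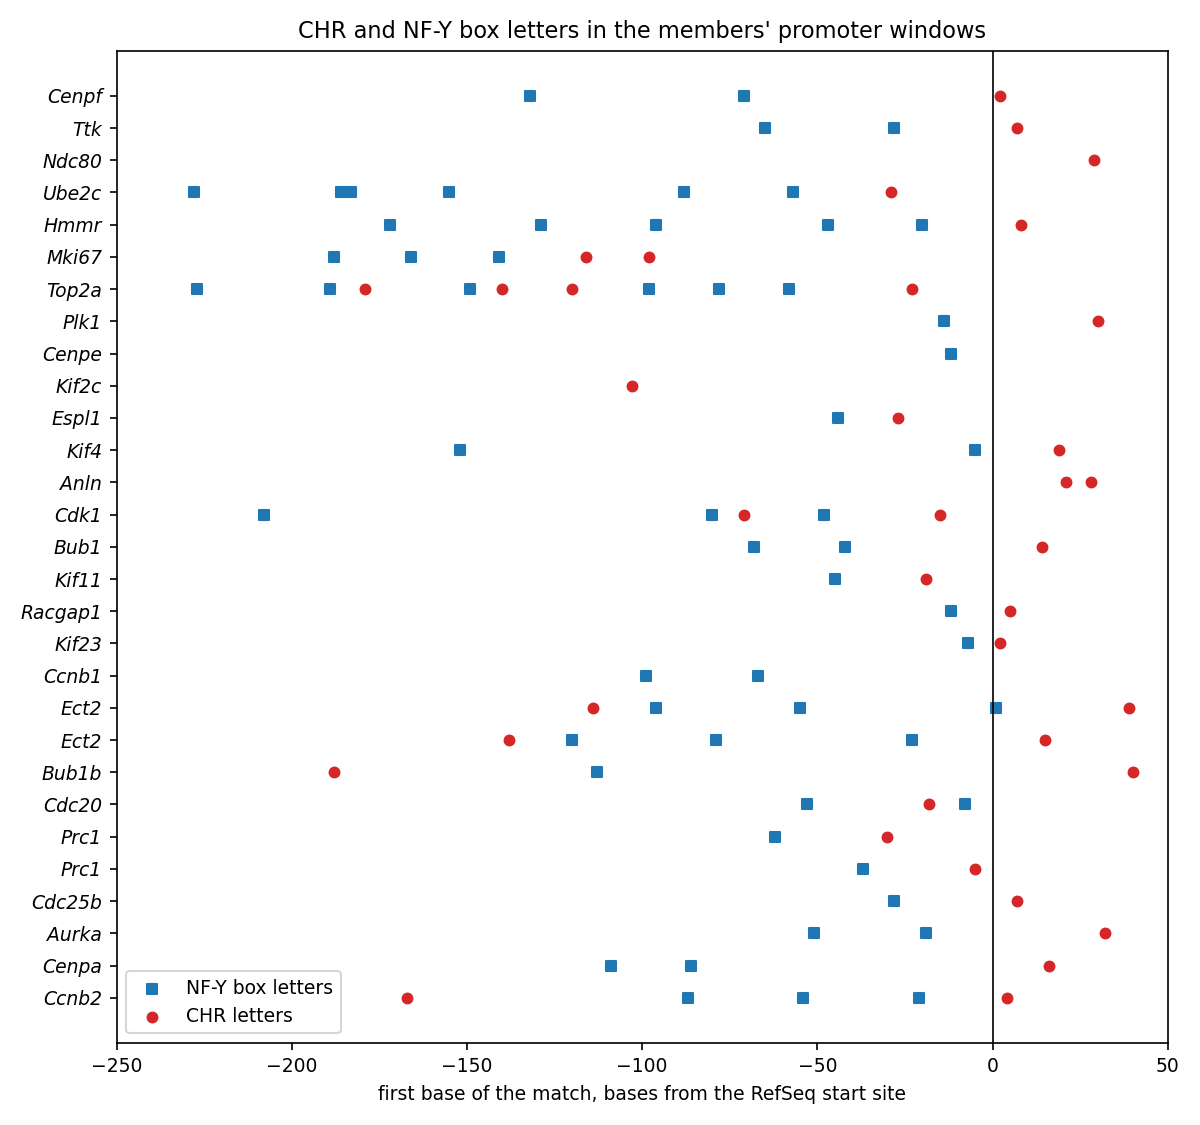
First base of each match, in bases from the RefSeq start site, for the windows of members with CHR letters (red circles) or NF-Y letters (blue squares), ordered by the gene's FPKM ratio with the lowest ratio on top. Most red points lie near the start site and all blue points but 1, in Ect2, lie before it, and Ect2 and Prc1 appear 2 times because they have 2 annotated starts.

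Members with CHR letters had a median log2 ratio of -0.78 (25 genes) and members without them -0.80 (7 genes). The medians of the members with and without these letters thus lay close together. The other mitosis genes, a list described further on, also often held these letters, with CHR in 61.1% of 72 windows, NF-Y in 66.7% and both in 44.4%. Promoters of DNA replication genes held CHR letters in 25.7% of windows and E2F letters in 57.1%. Those of the anaphase-promoting complex and cohesin held CHR letters in 16.7%.

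Cyclins, Cdk1 and their regulators start mitosis, and all 7 were lower in the GW3965 library, with a median log2 ratio of FPKM of -0.63. Cdk1, the kinase that drives entry into mitosis (mm9 chr10:68799383-68815686), had 10.3 FPKM in DMSO and 5.998 in GW3965. That is a log2 ratio of -0.78 with a standard error of 0.41, and the authors' deposited table gives p = 0.0552. Ccna2, which encodes cyclin A2, had 3.42 and 2.04 FPKM (-0.75). Ccnb1, which encodes cyclin B1, had 1.16 and 0.750 (-0.63). Both main partners of Cdk1 were thus lower by a similar ratio to Cdk1 itself.

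Ccnb2, which encodes cyclin B2, differed little, with 0.948 and 0.855 FPKM (-0.15). Its 95% counting interval, from about 87 and 97 reads on its single annotated coding transcript, ran from -0.59 to 0.28 and covers counting error only. Foxm1, a transcription factor of the G2/M programme, had 2.07 and 1.44 FPKM (-0.52). The Cdc25 phosphatases, which activate Cdk1, were rare. Cdc25b had 0.504 and 0.410 FPKM (-0.30), with a standard error of 8.47. Cdc25c had 0.124 and 0.0784 (-0.66) from about 14 and 11 reads, and the authors did not test it. For both phosphatases, as for Ccnb2, the counting interval reached 0.

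The mitotic kinases and the passenger complex were lower by a median of -0.87 over 4 genes. Birc5, which encodes survivin, a subunit of the passenger complex that corrects chromosome attachment, had 4.19 FPKM in DMSO and 2.21 in GW3965 (-0.92, standard error 0.39). Aurkb, the kinase of that complex, had 3.34 and 1.89 (-0.82). The other subunits of that complex, which are not among the 38, had ratios nearer to 0, with Incenp at 5.66 and 5.13 FPKM (-0.14) and Cdca8, which encodes borealin, at 4.64 and 3.78 (-0.30). The point values thus differed within the complex, beside standard errors of 0.39 for Birc5 and 0.45 for Aurkb. Whether the subunits differ beyond such errors was not tested. Plk1, the Polo kinase of spindle assembly and mitotic entry, had 1.65 and 0.814 (-1.01). Aurka, the centrosomal Aurora kinase, also lay nearer to 0 at 3.53 and 2.89 (-0.29). Its counting interval, from -0.49 to -0.083, did not overlap those of Aurkb (-1.06 to -0.59) and Birc5 (-1.23 to -0.63). The wider standard errors, 0.30 for Aurka and 0.45 for Aurkb, leave ranges of 1 standard error that overlap.

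Kinetochore and spindle checkpoint genes held the lowest ratios of the list, and all 9 were lower with a median of -0.83. Cenpf, a large kinetochore protein, was lowest, at 0.375 FPKM in DMSO and 0.114 in GW3965 (-1.71), with a standard error of 1.78. Ttk, the checkpoint kinase also known as Mps1 (mm9 chr9:83728296-83765997), had 1.14 and 0.361 (-1.66, standard error 0.38). In the authors' deposited table Ttk had p = 1.38e-05 and q = 0.00702, with a call. Ttk thus had a ratio near that of Cenpf with a smaller standard error.

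The Ndc80 complex grips microtubules, and 2 of its subunits are members of the list. Ndc80 had 1.23 and 0.461 FPKM (-1.42, standard error 0.39), with p = 0.000305 and q = 0.0852 in the authors' deposited table. Nuf2 had 0.925 and 0.519 (-0.83). The other subunits, from the list of other mitosis genes, were Spc24 at 1.33 and 0.960 FPKM (-0.47) and Spc25 at 3.65 and 2.34 (-0.64). Cenpe, a kinetochore motor, had 0.436 and 0.226 (-0.95). Ndc80, Nuf2 and Cenpe were below 1 FPKM in the GW3965 library.

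The checkpoint kinase Bub1 had 0.697 and 0.408 FPKM (-0.77), and its relative Bub1b, which encodes BubR1, had 2.38 and 1.56 (-0.61). Mad2l1, which encodes the checkpoint protein Mad2, was the most abundant of the group at 7.84 and 6.26 (-0.33). Cenpa, the histone variant that marks centromeres, had 3.45 and 2.96 (-0.22). The 2 most abundant genes of the group, Mad2l1 and Cenpa, thus had the ratios nearest to 0.

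Kinesins are motors of the spindle, and all 5 were lower with a median of -0.77. Kif11, which pushes spindle poles apart, had 1.03 FPKM in DMSO and 0.606 in GW3965 (-0.77). Kif2c, which takes microtubules apart at centromeres, had 1.13 and 0.588 (-0.94). Kif23, a motor of the central spindle, had 1.21 and 0.762 (-0.67). These 3 motors had similar levels. Kif4, a chromosome-bound kinesin, had 0.658 and 0.355 (-0.89) with a standard error of 1.89.

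Kif20a, a kinesin needed for cytokinesis, had the ratio nearest to 0 of all 38 genes, at 2.18 and 1.99 FPKM (-0.13). Its locus in the table also holds Cdc23, a subunit of the anaphase-promoting complex at 10.1 and 11.4 FPKM. The transcripts of the 2 genes overlap, since 27.3% of the 25-base words of Kif20a transcripts also occur in those of Cdc23. Reads could be shared between them, and the part of that in the ratio was not tested.

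Spindle and chromosome proteins had a median plain ratio of -0.91 over 6 genes, the lowest of the role groups on that scale. On the scale of FPKM + 1 the median was lowest in the mitotic kinases and passenger complex, at -0.56 against -0.51. Top2a, the topoisomerase that untangles sister chromosomes (mm9 chr11:98854257-98885503), had 5.82 FPKM in DMSO and 2.87 in GW3965 (-1.02, standard error 0.41). About 1813 and 1111 reads gave it a counting interval of -1.13 to -0.91. Mki67, which encodes the proliferation antigen Ki-67 (mm9 chr7:142881471-142908062), had 1.82 and 0.884 (-1.04, standard error 0.24). In the authors' deposited table Mki67 had p = 1.69e-05 and q = 0.00752, with a call. Mki67 had the smallest standard error of the 38, and the uncalled genes Ndc80, Ube2c, Cenpf and Hmmr had lower ratios.

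Hmmr, a spindle protein, had 0.810 and 0.380 FPKM (-1.09). Nusap1, a microtubule bundler near chromatin, had 0.599 and 0.344 (-0.80). Tpx2, which activates Aurora A on the spindle, had 1.76 and 1.04 (-0.76). Prc1, which bundles the microtubules of the central spindle, differed less, at 2.65 and 2.12 (-0.32). In this group Prc1 alone was less than 1.5-fold lower.

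Anaphase and ubiquitin genes were lower in all 4 cases, with a wide range. Ube2c, the ubiquitin-conjugating enzyme of the anaphase-promoting complex (mm9 chr2:164595398-164605467), had 3.02 FPKM in DMSO and 1.22 in GW3965 (-1.32, standard error 0.39). In the authors' deposited table Ube2c had p = 0.000868 and q = 0.168, without a call. Espl1, which encodes separase, the protease that cuts cohesin, had 0.420 and 0.226 (-0.89). Ube2c was thus 2.49-fold lower, the largest difference among the 21 members with a mean above 1 FPKM.

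Cdc20, the activator of the complex, had 2.07 and 1.45 FPKM (-0.52, standard error 1.82). Of its transcripts' 25-base words, 29.4% also occur in the pseudogene Gm7856, listed at 0 in both libraries. Pttg1, which encodes securin, the inhibitor of separase, was by far the most abundant of the 38 genes at 36.0 and 28.8 FPKM (-0.32). Pttg1 alone made up 30.5% of the summed FPKM of the list in DMSO. That sum was 118 in DMSO and 80.3 in GW3965, and 82.1 and 51.5 without Pttg1.

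The cytokinesis genes lay close together, at -0.61 to -0.88. Anln, which encodes the contractile ring scaffold anillin, had 1.86 FPKM in DMSO and 1.01 in GW3965 (-0.88, standard error 0.28). In the authors' deposited table Anln had p = 0.00136 and q = 0.231. Racgap1 and Ect2 form the module that activates RhoA at the cleavage site. Racgap1 had 1.74 and 1.07 FPKM (-0.70). Ect2 had 3.57 and 2.34 (-0.61). All 3 genes were at least 1.5-fold lower on the plain ratio.

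**Figure D4:**
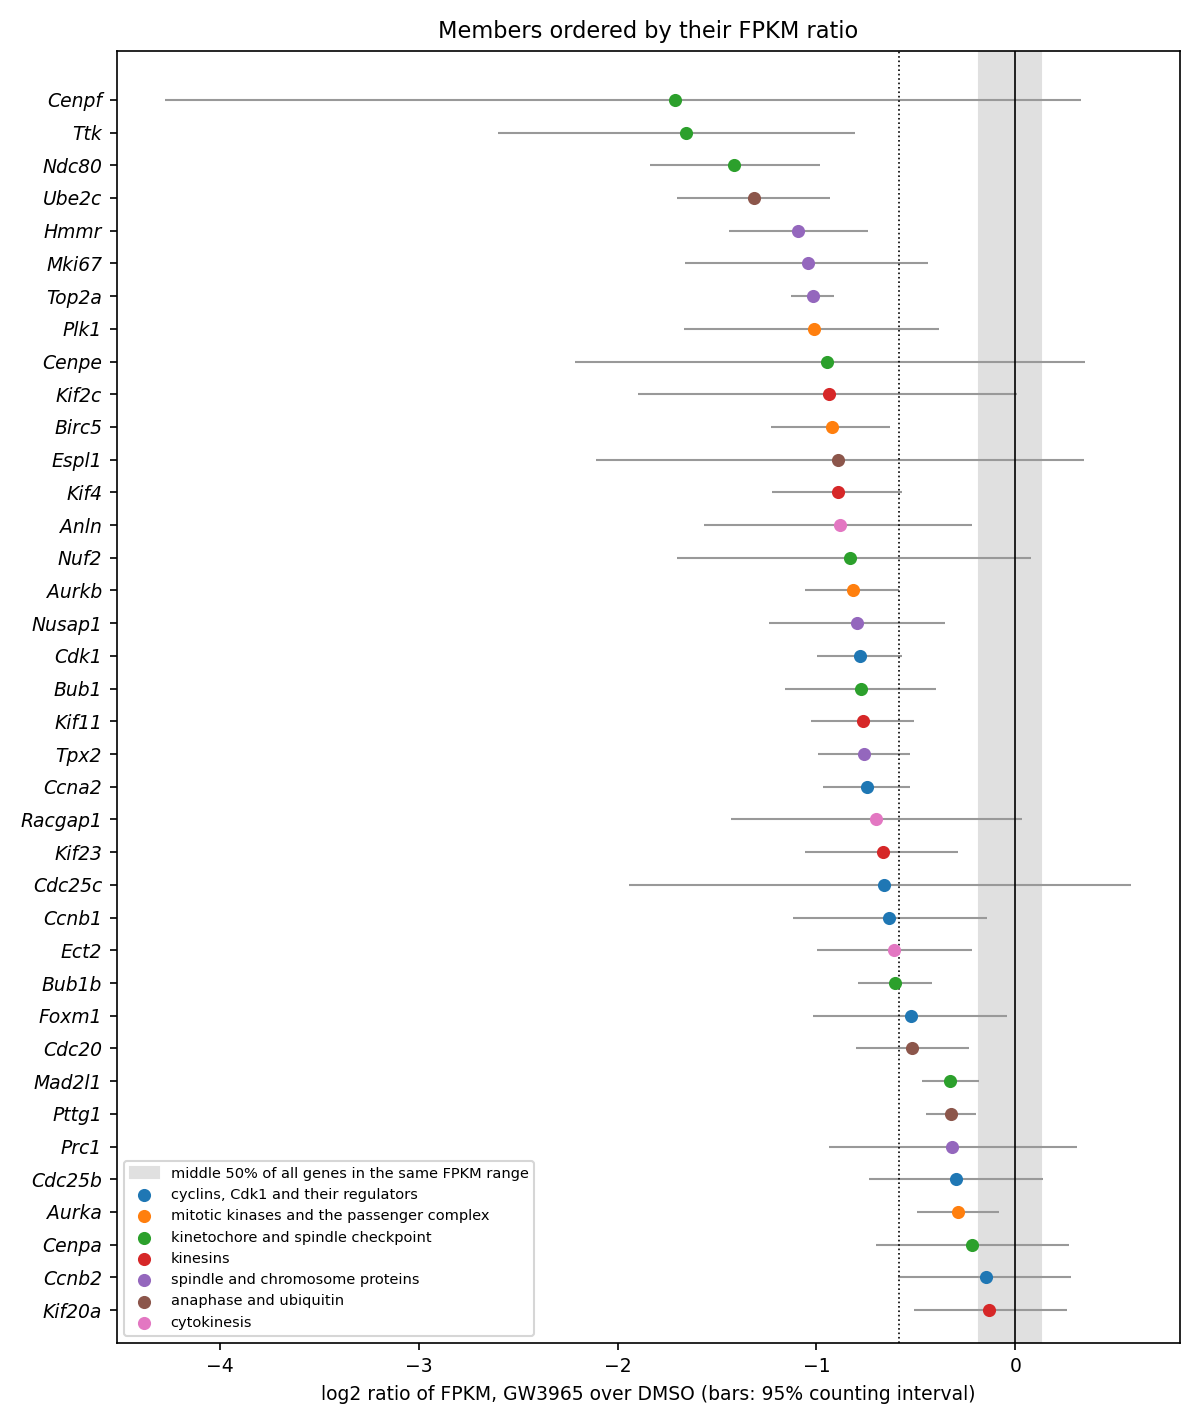
The 38 genes ordered by log2 ratio of FPKM, GW3965 over DMSO, coloured by role, with 95% counting intervals for the shortest annotated coding transcript, a band for the middle 50% of all genes in the same FPKM range, and a dotted line at 1.5-fold lower. Kinetochore genes lead, and Kif20a and Ccnb2 lie within the band.

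Counting intervals depend on the transcript a gene uses, because FPKM turns into reads through its length. With the shortest annotated coding transcript, which gives the fewest reads, 26 of the 38 intervals lay wholly below 0. With the longest, 33 did, and the 5 that reached 0 were those of Ccnb2, Cdc25b, Cdc25c, Cenpa and Kif20a. Reads per gene had a median of 116.5 in DMSO on the shortest and 299 on the longest transcript. These intervals leave out any difference between cultures. They were computed for the members only, so the counts of intervals below 0 have no share over all genes to be read against.

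In 13 of the 38 cases the locus of the table held another gene. Besides Kif20a, Ccna2 shares its locus with Exosc9 (19.8 and 20.2 FPKM) and Kif4 with Pdzd11 (17.6 and 15.7). The locus of Cdc20 also holds Elovl1 (70.65 and 81.85), and that of Cdc25b holds Cenpb (43.96 and 44.07) among others. Foxm1 shares its locus with Nrip2 (0.906 and 0.538) and Nusap1 with Oip5 (0.924 and 0.630). Exosc9 and Pdzd11 were less than 1.5-fold lower or higher, while Nrip2 was more than 1.5-fold lower. Ccnb1 and Plk1 share 24.3% and 20.6% of their words with the pseudogenes Ccnb1-ps and Plk-ps1, and Plk-ps1 was at 0.572 and 0.593 FPKM. Ube2c shares 29.2% of its words with other genes, with 18.8% in Tnnc2 of the same locus, which was at 0.0291 and 0.0234 FPKM. The values of these genes are uncertain to that extent. The members lay on 16 chromosomes, with 7 on chromosome 2 and 5 on chromosome 11.

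Other genes of mitosis, a list of 80 names of which 76 were in the table, leaned the same way. Of these, 68 of 76 had a plain ratio below 0, against 50.5% of all genes above 0 in both libraries, with a median of -0.58. Of the 50 at the minimum of 1 FPKM, 3 were at least 1.5-fold lower on the scale of FPKM + 1, against 1.33% of all genes. At least 1.5-fold higher were 0, against 1.02%, and the median was -0.30. Those 3 were Spag5, a spindle protein at 1.80 and 0.657 FPKM (-0.76), Pbk, a mitotic kinase at 2.33 and 1.00 (-0.74), and Esco2, a cohesin acetyltransferase at 1.91 and 0.767 (-0.72). Iqgap3 was next, at 1.28 and 0.541 (-0.57). Spag5, Esco2 and Iqgap3 reached 1 FPKM only in DMSO, the library in which they were higher. The counts at the minimum therefore describe these genes and support nothing further. Ska1 of the outer kinetochore, at 0.227 and 0.0405 FPKM, was the only gene of the list called in the authors' deposited table (q = 0.0470). Not all of the list was lower, and Zwint had 162 and 172 FPKM, Bub3 had 33.3 and 36.7, Lmnb1 had 13.3 and 15.2, and Ckap5 had 7.63 and 8.64. Ska1, these 4 genes and the list's Spc24, Spc25, Incenp, Cdca8 and Mybl2 were named after their values were seen.

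Subunits of the anaphase-promoting complex and genes of cohesin, much of which is made throughout the cycle, lay around 0. Of 24 such genes, 8 had a ratio of FPKM + 1 below 0, against 47.1% of all genes, with a median of 0.027. At least 1.5-fold lower were 0, against 1.33%, and at least 1.5-fold higher were 0, against 1.02%. A minimum of 5 FPKM kept 23 of these 24 genes but only 4 of the 38 members, so the lists differ in level. Cdc23 was highest at 0.17 and Cdc26 lowest at -0.16, and the cohesin regulators Pds5a and Pds5b stood at 0.13 and -0.12.

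Of 36 DNA replication genes, 33 had a ratio of FPKM + 1 below 0, against 47.1% of all genes, and the median was -0.23. At least 1.5-fold lower were 4, against 1.33%. Rrm2, a subunit of ribonucleotide reductase, had 12.4 and 5.75 FPKM (-0.99) and was called in the authors' deposited table with q = 0.00615. Cdc6, a loader of the replicative helicase, had 3.01 and 1.42 (-0.73). Uhrf1 stood at -0.68 and Chaf1b at -0.62. Of 12 G1 cyclins and kinases, 8 lay below 0, against 47.1% of all genes, with a median of -0.10. At least 1.5-fold lower was 1, against 1.33%. Ccne2, which encodes cyclin E2, had 3.14 and 1.52 FPKM (-0.71), with p = 0.661 in the authors' deposited table. Ccnd1, which encodes cyclin D1, had 32.0 and 23.1 (-0.45).

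The list of MuvB, the RB family and E2F had a median near 0, with lower values for some of its E2F genes. Of 16 such genes, 8 had a ratio of FPKM + 1 below 0, against 47.1% of all genes, with a median of -0.010. Past 1.5-fold were 0, against 1.33% of all genes lower and 1.02% higher. On that scale E2f8 stood at -0.52, E2f1 at -0.38, E2f6 at -0.35 and Lin54, the CHR-binding subunit of MuvB, at 0.32. E2f8 had 1.61 and 0.819 FPKM, a plain ratio of -0.97 with p = 0.00555 in the authors' deposited table. It reached 1 FPKM only in DMSO, the library in which it was higher. Mybl2, which encodes B-MYB and stands in the list of other mitosis genes, had 1.85 and 1.18 FPKM (plain ratio -0.65), and Foxm1, a member given above, was lower as well. Of 12 CDK inhibitors and p53 targets, 6 were below 0 and 0 passed 1.5-fold, beside the same shares of all genes, with a median of 0.016. Btg2, an antiproliferative gene, had 40.4 and 30.0 FPKM (-0.42), and Cdkn2b, which encodes the inhibitor p15, had 19.6 and 25.9 (0.39).

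**Figure D5:**
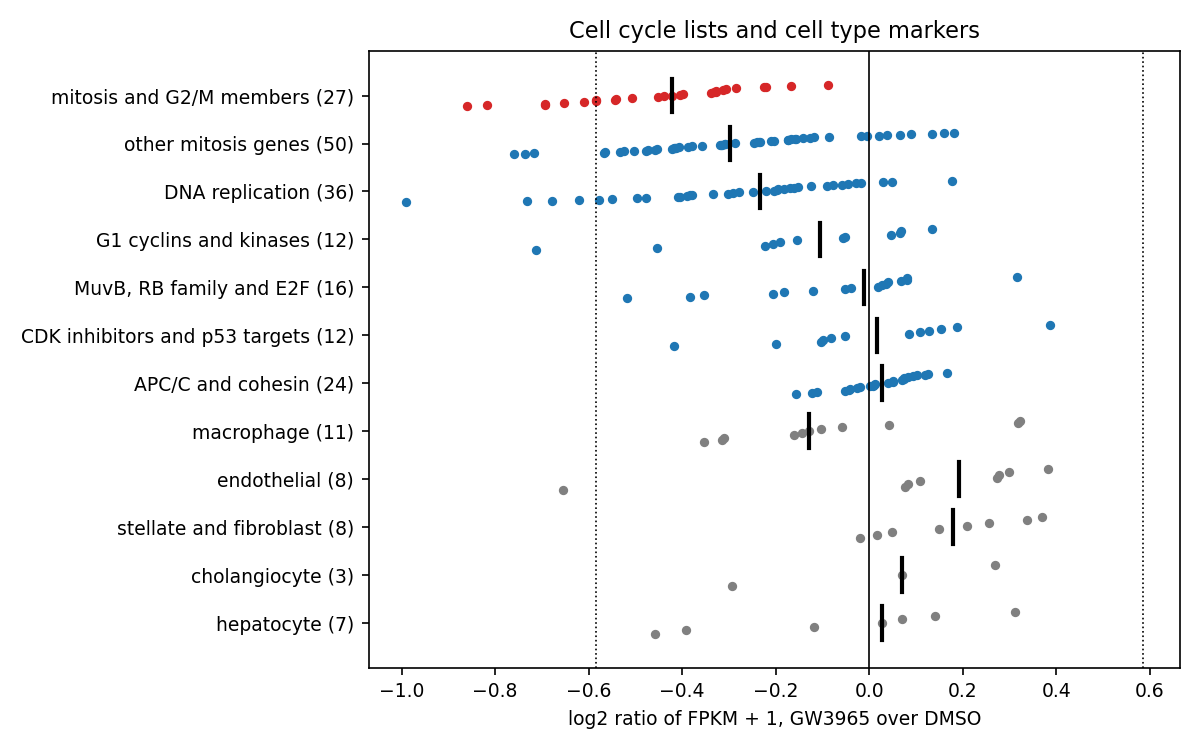
Log2 ratio of FPKM + 1, GW3965 over DMSO, of each gene with at least 1 FPKM in either library, by list, with the number of genes in brackets. Black bars are medians and dotted lines mark 1.5-fold, and the mitosis and G2/M genes (red) have the lowest median of the lists drawn, at -0.42. Of these 27 genes, 8 reached 1 FPKM only in DMSO, the library in which they were higher. The lists also differ in FPKM level, so the order of the medians is a description only.

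Other cells of the liver can divide in such cultures, so their markers are given beside these results. Macrophage markers were below 0 in 8 of 11 cases, against 47.1% of all genes, with a median ratio of FPKM + 1 of -0.13. All 13 found summed to 249 FPKM in DMSO and 247 in GW3965. The 8 endothelial markers had a median of 0.19 and summed to 194 and 222 FPKM. Clec4g alone was lower by 1.5-fold at 2.14 and 0.996 FPKM, against 1.33% of all genes. It reached 1 FPKM only in DMSO, the library in which it was higher. Of 9 stellate cell and fibroblast markers 8 reached 1 FPKM, and these had a median of 0.18, while all 9 summed to 90.1 and 96.4. Of 6 cholangiocyte markers 3 reached 1 FPKM, with a median of 0.070, and all 6 summed to 4150 and 3394 FPKM. Nearly all of that sum was Spp1, at 4131 and 3373 FPKM. The other markers that reached 1 FPKM were Krt19 at 5.34 and 6.63 and Sox9 at 14.01 and 14.75. Of 8 hepatocyte markers 7 reached 1 FPKM, with a median of 0.026, and all 8 summed to 1244 in both libraries. The equal sums hide differences in both directions, and 4 of the 8 had a plain ratio below 0. Apoa1, the largest part of the sum, had 598.5 FPKM in DMSO and 659.7 in GW3965. Serpina1a had 137.7 and 99.92, and Hnf4a had 49.44 and 37.45. The part of these cells in the lower mitosis genes was not tested.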

How the data were processed

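RNA of primary mouse hepatocytes was sequenced from TruSeq RNA libraries, 1 for DMSO and 1 for 1 µM GW3965. Tools named in the submitters' processing notes are Cuffdiff, Cufflinks 2.0.2, TopHat2 2.0.6 and CASAVA, and the builds are mm9 and NCBIM37. Their settings are not stated in these sources. Levels in the deposited table are FPKM. Per the file headers the authors' table also holds a log2 fold change, a test statistic, which is a score whose sign is opposite to the fold, and a p-value and q-value per gene. The signed fold column, another score of the deposited table, was not used.

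The 38 members and all lists were chosen with earlier results of these data known. Of 36808 genes, 7 with the mark for too many fragments were left out and 73 with a failed test were kept. Ratios were computed as plain FPKM ratios and as log2 of (FPKM + 1) with a minimum of 1 FPKM in either library and changes were counted from 1.5-fold. A single library per treatment allows neither an SD nor a test. All members are named, with up to 4 genes of each other list by size of ratio, and those beyond that rule were chosen after their values were seen. Locus starts, counted from 0 in the table, had 1 added.

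Depth came from low FPKM values. Their commonest DMSO to GW3965 ratio, 1.24, was taken as 1 read against 1 read. Of 1863 ratios, 68.6% then lay within 0.1% of a fraction of small whole numbers. After each ratio was moved by 3%, 0.644% did. Absolute scale came from 21 genes with 1 transcript and is an estimate. Exact binomial intervals (Clopper-Pearson, 95%) cover counting error only. Transcript lengths and shared 25-base words came from GENCODE M21 and promoters from RefSeq (GRCm38.p6). Size rules were tested on simulated data. Scripts ran in Python 3.11.15 with matplotlib 3.10.9, scipy 1.17.1, numpy 2.4.6 and pandas 2.3.3.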

Additional observations from a re-analysis of the deposited data

How the results depend on the processing

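Over the settings run, 91 of 379 values of lists and single genes moved by over 1.5 times and by at least 0.1 in log2 ratio. Moves smaller than 0.1 were not counted, also where they exceeded 1.5 times. The count of members at least 1.5-fold lower was 6 of 27, against 1.33% of all genes. It was 17 with a pseudocount of 0.1 (2.71% of all genes) and 19 with none (2.70%). With a pseudocount of 5 it was 0 (0.475%), as at a 2-fold threshold (0.466%). With neither pseudocount nor minimum, a setting chosen after the data were seen, it was 28 of 38, against 9.58%. At a minimum of 5 FPKM only 4 members remained. All 4 were below 0 (43.55% of all genes) and 2 of them were past 1.5-fold (0.95%), Top2a and Cdk1. Top2a reached 5 FPKM only in DMSO, the library in which it was higher (5.82 and 2.87). The counts at this minimum therefore describe these genes and support nothing further. The median of -0.42 became -0.68 with a pseudocount of 0.1, -0.75 with none, -0.19 with 5, and -0.77 with neither pseudocount nor minimum. Pseudocounts act on low genes by construction, and a higher minimum leaves fewer genes. Centring, scaling to 1 sum and the genes the authors tested kept count and median within 1.5 times, and leaving out each role group gave medians of -0.45 to -0.40. No paired analysis was possible because DMSO and GW3965 have 1 library each. Depth limits members under 1 FPKM.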
